A study of Homo sapiens with 28 samples.

Results

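The genes described here are 9 secreted or membrane-bound antagonists of WNT signalling, namely SFRP1, SFRP2, SFRP4, FRZB, DKK1, DKK3, NOTUM, APCDD1 and TPBG. They were taken by name from an expression table of 58219 genes, in which each name had 1 row. The choice was made with earlier results of these data known. All 9 also passed the filter on low values described below, which 27912 genes passed.

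WNT ligands are lipid-modified secreted proteins that bind Frizzled receptors together with the co-receptors LRP5 and LRP6, and through beta-catenin they switch on target genes such as AXIN2. In the early neural plate this signal takes part in setting position along the head-to-tail axis, with forebrain forming where it is low and midbrain and hindbrain where it is higher. Antagonists act outside the cell or at its membrane, and several of them are themselves switched on by the signal they dampen.

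The series profiled poly(A) RNA of H9, an established human embryonic stem cell line, to ask what the transcription factor SOX1 does in early neural differentiation. Cells were wild type or SOX1-/- and were collected undifferentiated (label ES, day 0) or on day 4 or day 8 of neural differentiation under a label IWP2, CT0.4 or CT1.0. IWP2 is an inhibitor of WNT secretion, while neither the meaning of CT nor the unit of its number is stated in the labels. The 14 groups are therefore wild type and SOX1-/- in ES, and wild type and SOX1-/- under each of the 3 labels on each of the 2 days, with 2 libraries each. The wild-type libraries carry the numbers 1 and 2 and the SOX1-/- libraries the numbers 26 and 48, which are called lines here. No other allele or agent is named, and nothing in the labels says that the 2 libraries of a group came from separate cultures, so that p-values measure only the spread between these samples. The labels name a HiSeq2000 and an X-ten sequencer without saying which library ran on which, so that a sequencer effect was not tested.

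Values are TPM, a transcript abundance corrected for transcript length and scaled to the same total in each library, which allows levels to be compared between genes but keeps no sequencing depth. SOX1 itself reached 72.1 to 97.99 TPM in the 4 wild-type CT1.0 libraries and at most 3.08 TPM in any SOX1-/- library, while under IWP2 on day 4 the genotypes overlapped (0.907 and 0.99 against 0.41 and 1.14 TPM) and the label could not be checked. The summed level of 5 pluripotency genes was 3257 to 3496 TPM in ES and at most 207 TPM in any differentiated library. The summed level of 6 neural progenitor genes was 422 to 1464 TPM after differentiation against 221 to 299 TPM in ES. Among the differentiated libraries, 4 stood apart: the wild-type CT0.4 and CT1.0 libraries of day 4 had 17694 to 18233 genes at 1 TPM or more, against 18876 to 20338 in the other 24. All wild-type day 4 values under these labels come from them, so those results have no version without them. In bulk RNA, fewer cells of a type and less RNA per cell cannot be told apart.

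Differences are given on the log2(TPM + 1) scale, which understates the change of genes near 0, with the standard error (SE) of a limma fit over all 28 libraries. A gene was called when its Benjamini-Hochberg adjusted p, taken over all 27912 genes of a comparison, was under 0.05.

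The members differed widely in level. SFRP1 and SFRP2, secreted Frizzled-related proteins that bind WNT ligands, were abundant in every library (53.2 to 632 and 69.3 to 407 TPM). TPBG, a membrane glycoprotein that dampens WNT signalling through LRP6, spanned 21.2 to 1399 TPM, and APCDD1, a membrane-bound WNT inhibitor, 0.941 to 213 TPM. FRZB, a further Frizzled-related protein, ranged from 2.67 to 136 TPM and DKK3, a divergent member of the Dickkopf family, from 11.3 to 51.3 TPM. SFRP4, DKK1 and NOTUM were low or absent in most groups, reaching 1 TPM in 11, 7 and 8 of the 28 libraries. In ES, SFRP1 and SFRP2 together made up 89.7% to 91.7% of the summed TPM of the 9 genes. Under CT0.4 on day 8 they made up 12.9% to 28.6% of it, and TPBG was the most abundant member there in all 4 libraries.

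**Figure D1:**
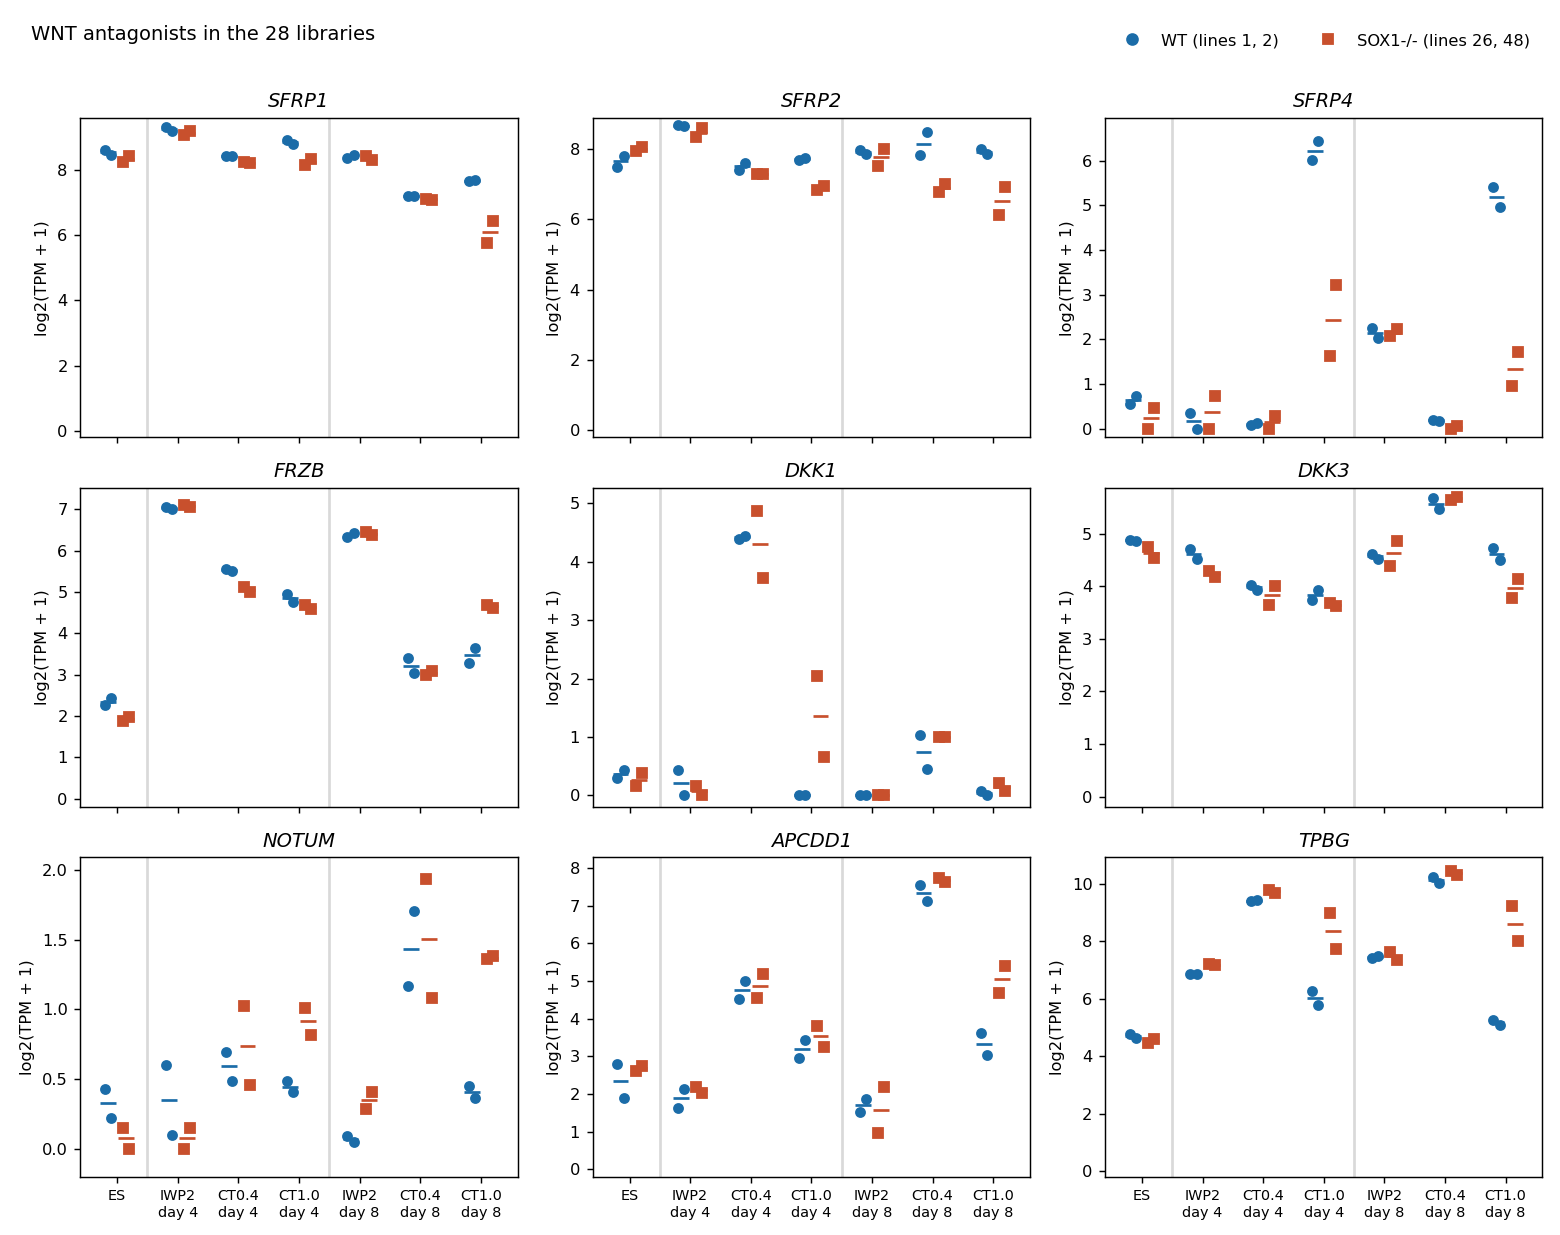
Level of each antagonist in the 28 libraries, as log2(TPM + 1) by day and label, with wild-type libraries as blue circles, SOX1-/- libraries as red squares and the group mean as a short bar. The largest differences between genotypes lie under CT1.0, where SFRP4 reached 86.0 TPM in wild type and at most 8.31 TPM in SOX1-/- cells.

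The antagonists DKK1, TPBG and APCDD1 were higher under CT0.4 than under IWP2 in wild-type cells on day 4, and the sequence upstream of their start sites is shown because these are the members that moved upward with that label. Stretches of 200 bases, from 230 to 31 bases before the annotated start, were read from RefSeq promoters on build GRCh38.p14, which held entries for 6 of the 9 members (not for SFRP1, DKK3 and NOTUM). They were searched on both strands for the core of the motif bound by TCF and LEF, the DNA-binding partners of beta-catenin, written as CTTTGA or CTTTGT and their reverse complements TCAAAG and ACAAAG. Capitals mark each match. The sequences run 5′ to 3′ on the plus strand, for DKK1 at chr10:52314051-52314250, for the first of 3 annotated TPBG starts at chr6:82362753-82362952, and for APCDD1 at chr18:10454405-10454604.
DKK1: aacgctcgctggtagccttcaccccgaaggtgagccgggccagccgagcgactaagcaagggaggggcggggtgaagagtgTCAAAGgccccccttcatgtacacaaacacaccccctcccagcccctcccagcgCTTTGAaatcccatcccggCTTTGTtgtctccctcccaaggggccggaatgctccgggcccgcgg
TPBG: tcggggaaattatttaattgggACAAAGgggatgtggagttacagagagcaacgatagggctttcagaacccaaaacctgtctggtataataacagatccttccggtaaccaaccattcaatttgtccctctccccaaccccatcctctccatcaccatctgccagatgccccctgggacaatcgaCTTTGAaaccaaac
APCDD1: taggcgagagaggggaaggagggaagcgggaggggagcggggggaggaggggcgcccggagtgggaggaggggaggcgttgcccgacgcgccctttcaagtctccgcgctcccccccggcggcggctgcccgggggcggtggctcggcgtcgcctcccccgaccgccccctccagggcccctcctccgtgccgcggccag
DKK1 held 3 matches, at 149, 95 and 76 bases before its start, and the first TPBG start held 2, at 208 and 44 bases before it. The second TPBG start held 0 and the third held 2 (at 214 and 168 bases), and APCDD1, SFRP2, SFRP4 and FRZB held 0. Of all 35116 promoters in the table, 18.9% held at least 1 match in the same window, 2.77% at least 2 and 0.276% at least 3. A match is a run of letters and not a measured binding site, and no match says nothing of sites elsewhere.

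Loss of SOX1 went with altered antagonist levels mainly under CT1.0. On day 8 under that label, SOX1-/- cells had more TPBG, APCDD1, FRZB and NOTUM and less SFRP4, SFRP1, SFRP2 and DKK3 than wild type, so that 8 of the 9 members were called (14.3% of all genes were called in this comparison). On day 4 under CT1.0, 5 members were called, with TPBG and DKK1 higher and SFRP4, SFRP2 and SFRP1 lower in SOX1-/- cells (14.9% of all genes). Under CT0.4 only FRZB was called on day 4 and only SFRP2 on day 8, both lower in SOX1-/- cells (4.24% and 0.416% of all genes). No member was called by limma in ES (0.219%), under IWP2 on day 4 (0.043%) or under IWP2 on day 8 (0.0609%), with 1, 1 and 0 of the 9 at an unadjusted p under 0.05. The uncalled differences ranged from -0.43 (FRZB) to 0.34 (SFRP2) in ES and from -0.15 to 0.28 under IWP2 on day 8. Libraries of the genotypes did not overlap for 7 of the 9 members in ES, beside 8 on each day under CT1.0. Under CT0.4 this held for 4 on day 4 and 5 on day 8, and under IWP2 for 4 and 1. With 2 libraries a group, a lack of overlap says little by itself. The median difference of the 9 members was 0.10 on day 8 and -0.19 on day 4 under CT1.0, beside -0.02 and 0.19 over all genes.

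These 15 calls among 63 tests share one estimate of the spread over all 14 groups, and with only the 4 libraries of each comparison in the fit none of the 15 was called (limma adjusted p = 0.063 to 0.53). Of all 27912 genes, that fit called 0 under CT1.0 on day 8 and 0 under CT0.4 on day 4. It called 334 under CT1.0 on day 4 and 119 under CT0.4 on day 8. Where it called 0 of all genes, the loss says nothing of the members. When 1 library per group was left out, the lone library was assumed to vary like the other groups. Fewer members were then called, whichever line was left out. Under CT1.0 fewer of all genes were called too, except without SOX1-/- line 48 on day 8.

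**Figure D2:**
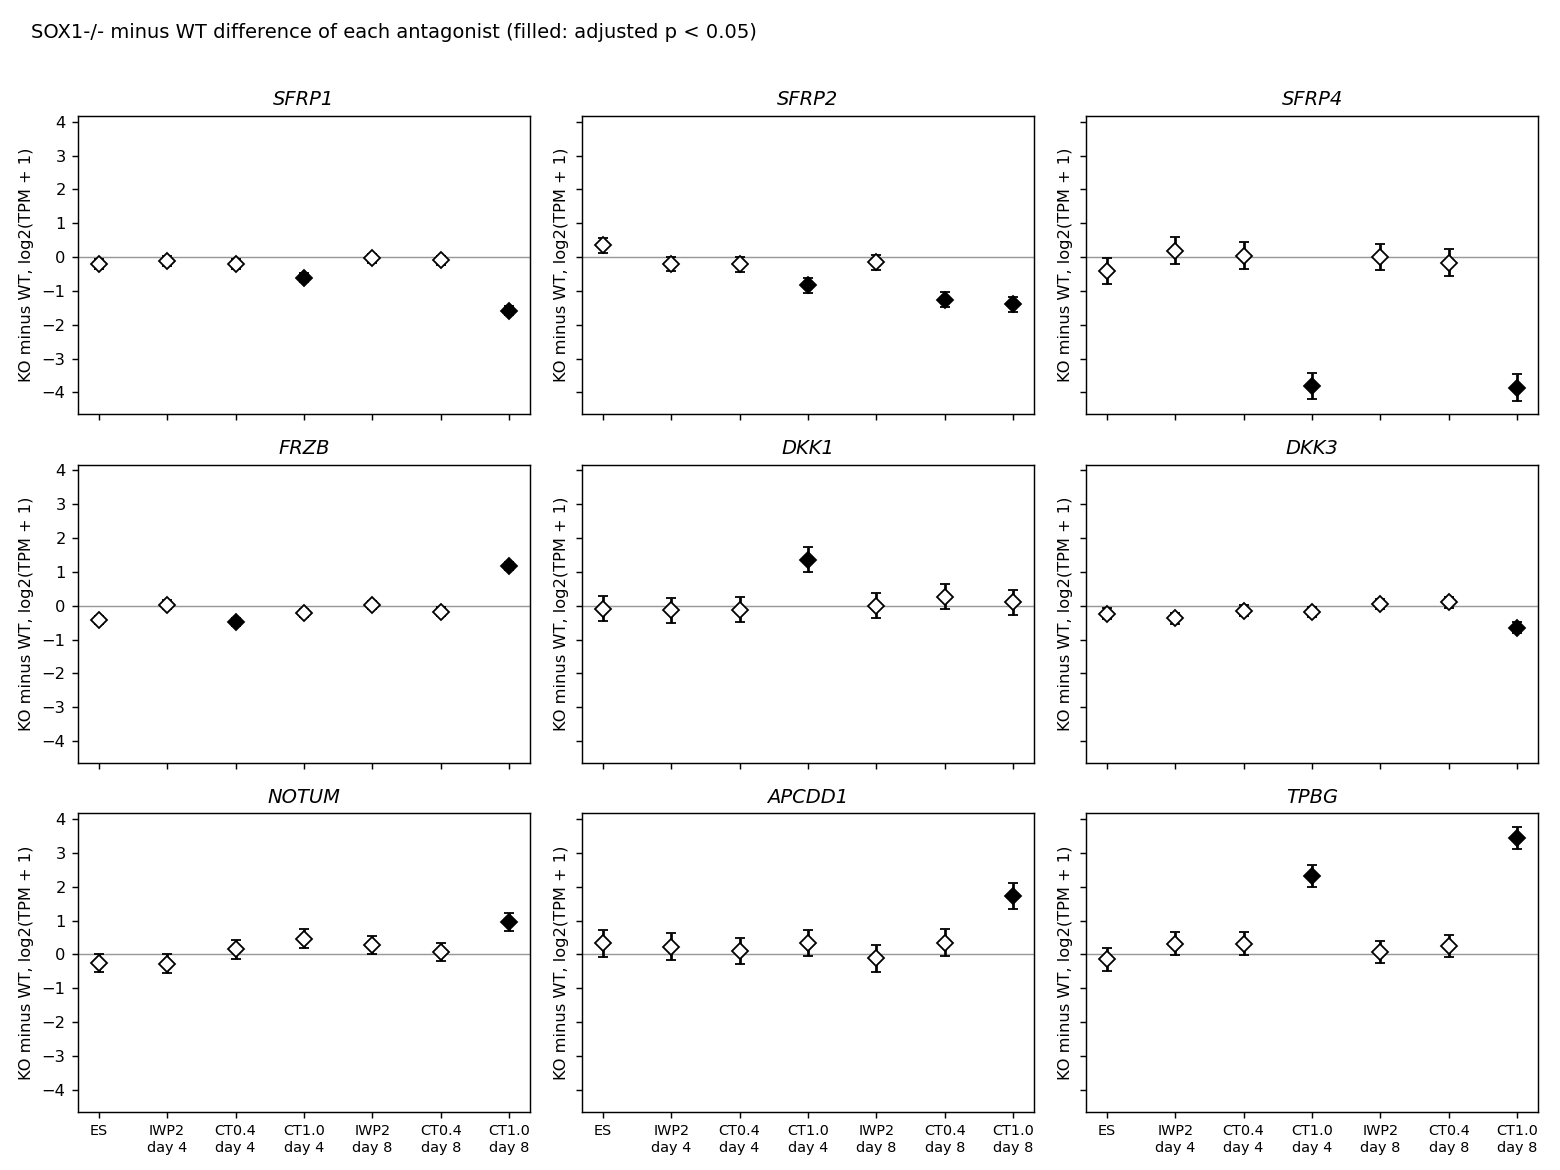
SOX1-/- minus wild-type difference of each antagonist in log2(TPM + 1) by day and label, with bars of 1 standard error and filled symbols for adjusted p under 0.05. Filled symbols cluster at CT1.0, with SFRP4 at -3.81 and -3.86 and TPBG at 2.33 and 3.44 on days 4 and 8.

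SFRP4, a secreted Frizzled-related protein, marked the wild-type CT1.0 cultures. On day 4 it measured 63.9 and 86.0 TPM in the wild-type libraries and 2.09 and 8.31 TPM in SOX1-/- lines 26 and 48. On day 8 it measured 41.6 and 30.3 TPM in wild type and 0.937 and 2.28 TPM in lines 26 and 48. The genotypes did not overlap on either day, and line 26 was the lowest both times. The difference was -3.81 (SE 0.39, limma adjusted p = 2.1e-05) on day 4 and -3.86 (SE 0.39, adjusted p = 2.5e-05) on day 8.

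Outside CT1.0 SFRP4 was near 0 on day 4 (0 to 0.651 TPM in IWP2 and CT0.4 libraries of both genotypes) and 3.05 to 3.79 TPM in all 4 IWP2 libraries of day 8. Under CT0.4 on day 8 it was again near 0, with 0.15 and 0.129 TPM in wild type and 0 and 0.0323 TPM in SOX1-/- cells. The SOX1-/- effect under CT1.0 differed from that under IWP2 by -4.00 on day 4 (limma adjusted p = 0.00085) and -3.86 on day 8 (adjusted p = 0.0026). It differed from that under CT0.4 by -3.85 (adjusted p = 0.0044) and -3.69 (adjusted p = 0.0024). Being near 0 in both genotypes, SFRP4 could hardly fall under CT0.4, or under IWP2 on day 4. Apart from that with IWP2 on day 8, these differences of effects largely restate the CT1.0 difference. Each of these differences of effects missed the threshold without wild-type line 1 (adjusted p = 0.066 and 0.17 against IWP2, 0.19 and 0.15 against CT0.4) or line 2 (0.0899 and 0.13, 0.31 and 0.12), at sizes of -3.48 to -4.38. They also missed it with a pseudocount of 0.1 (adjusted p = 0.051 to 0.20).

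In wild type, hindbrain markers were high under CT1.0, as SFRP4 was. The summed TPM of HOXA2, HOXB2, HOTAIRM1 and EGR2 on day 4 under CT1.0 was 68.0 and 95.3 in wild type, 7.07 in SOX1-/- line 26 and 62.2 in line 48, with HOXB2 listed at 0 in all 4. On day 8 the sums were 140.1 and 188.9 in wild type and 155 and 195.01 in SOX1-/- cells, and the genotypes overlapped. SFRP4 in those SOX1-/- libraries was 0.937 and 2.28 TPM. In all IWP2 and CT0.4 libraries of day 8 the hindbrain sum was at most 0.966 TPM. The part of these markers in the SFRP4 result was not tested on either day.

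SFRP1 was highest under IWP2 on day 4, at 632 and 589 TPM in wild type and 542 and 588 TPM in SOX1-/- cells, and lowest in SOX1-/- cells under CT1.0 on day 8. There it measured 53.2 and 84.8 TPM against 199 and 207 TPM in wild type. The 4 libraries did not overlap, and the SOX1-/- pair also lay below all 4 CT0.4 libraries of that day (135 to 147 TPM). The difference was -1.58 (SE 0.14, limma adjusted p = 7.9e-06) on day 8 and differed from the SOX1-/- effect under IWP2 by -1.55 (adjusted p = 0.0012) and from that under CT0.4 by -1.49 (adjusted p = 0.00086). These differences of effects were not called without wild-type line 1 (adjusted p = 0.12 and 0.091) or line 2 (0.0997 and 0.105).

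On day 4 under CT1.0, SFRP1 measured 481 and 447 TPM in wild type and 284 and 324 TPM in SOX1-/- cells. The genotypes were apart by less than on day 8, at -0.61 (SE 0.14, limma adjusted p = 0.0069). The call was lost without wild-type line 1 (-0.56, adjusted p = 0.21) or line 2 (-0.66, adjusted p = 0.12), while the day 8 call was kept in 10 of 11 alternatives.

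SFRP2, like SFRP1, was lower in SOX1-/- cells under CT1.0. On day 8 it measured 254 and 228 TPM in wild type and 69.3 and 119.6 TPM in SOX1-/- cells. Under CT0.4 on the same day it measured 224 and 353 TPM in wild type and 109 and 127 TPM in SOX1-/- cells. Under IWP2 the genotypes overlapped, at 249 and 232 against 183 and 256 TPM. SFRP2 was thus the only member called lower in SOX1-/- cells under both CT labels on day 8, by -1.39 (SE 0.22, limma adjusted p = 0.00064) under CT1.0 and by -1.25 (SE 0.22, adjusted p = 0.014) under CT0.4.

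The 2 wild-type CT0.4 libraries of day 8 were themselves far apart for SFRP2, and the CT0.4 call was lost without wild-type line 1 (-1.58, adjusted p = 0.081), wild-type line 2 (-0.93, adjusted p = 0.54) or SOX1-/- line 26 (-1.14, adjusted p = 0.11). The CT1.0 call was lost without wild-type line 1 (-1.32, adjusted p = 0.069) or SOX1-/- line 26 (-1.003, adjusted p = 0.058). The SOX1-/- effect under CT1.0 differed from that under IWP2 by -1.24 (adjusted p = 0.039), a call lost without any 1 of the 4 lines (adjusted p = 0.052 to 0.31), after median-ratio scaling of the libraries (adjusted p = 0.053) and without the 4 wild-type day 4 libraries that stood apart (adjusted p = 0.061). The SOX1-/- effects under CT1.0 and CT0.4 differed by -0.14, which was not called. The summed level of the 6 neural progenitor genes under CT0.4 on day 8 was 742 and 935 TPM in wild type and 561 and 570 TPM in SOX1-/- cells, in the library order of SFRP2, and its part in the result was not tested.

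On day 4 under CT1.0, SFRP2 measured 203 and 214 TPM in wild type and 113 and 122 TPM in SOX1-/- cells. The groups did not overlap and the difference was -0.83 (SE 0.22, limma adjusted p = 0.018). It was not called without wild-type line 1 (adjusted p = 0.15), wild-type line 2 (0.16) or SOX1-/- line 26 (0.092).

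FRZB ran in the other direction from its relatives. On day 8 under CT1.0 it measured 8.77 and 11.6 TPM in wild type and 24.8 and 23.5 TPM in SOX1-/- cells. Both SOX1-/- libraries were above all other CT libraries of day 8, in which FRZB lay between 6.99 and 11.6 TPM. The difference was 1.18 (SE 0.12, limma adjusted p = 2.8e-05). It exceeded the SOX1-/- effect under IWP2 by 1.15 (adjusted p = 0.003) and that under CT0.4 by 1.35 (adjusted p = 0.00082), of which neither was called without SOX1-/- line 26 (adjusted p = 0.096 and 0.064).

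FRZB under CT1.0 on day 4 was 30.1 and 25.98 TPM in wild type and 24.7 and 23.2 TPM in SOX1-/- cells, a difference of -0.22 that was not called. Under CT0.4 on day 4 it was 46.3 and 44.3 TPM in wild type and 33.5 and 31.2 TPM in SOX1-/- cells. The CT0.4 libraries did not overlap and the difference of -0.47 (SE 0.12) was called at a limma adjusted p of 0.039, but the call was kept in only 2 of 10 alternatives. It was lost with the line number as a block (adjusted p = 0.052), with a pseudocount of 0.1 (0.0504), without a filter (0.053), without wild-type line 1 (0.13) and without SOX1-/- line 26 (0.23) or line 48 (0.25).

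Among the Dickkopf genes, DKK1, which blocks LRP5 and LRP6, was a gene of the CT0.4 cultures on day 4. It measured 19.9 and 20.7 TPM in wild type and 28.3 and 12.2 TPM in SOX1-/- cells there, so that the genotypes overlapped. Under CT1.0 on day 4 it was listed at 0 in both wild-type libraries and measured 3.13 and 0.586 TPM in SOX1-/- lines 26 and 48. Line 26 was the higher, as it was under CT0.4. The difference under CT1.0 was called (limma adjusted p = 0.02), but not without wild-type line 1 (adjusted p = 0.23), wild-type line 2 (0.20) or SOX1-/- line 26 (0.16). By day 8 DKK1 was listed at 0 in all 4 IWP2 libraries, lay between 0 and 0.155 TPM under CT1.0 and between 0.367 and 1.04 TPM under CT0.4.

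DKK3 varied less. On day 8 under CT1.0 it measured 25.6 and 21.5 TPM in wild type and 12.8 and 16.7 TPM in SOX1-/- cells, while under CT0.4 it measured 50.1 and 43.2 TPM in wild type and 49.0 and 51.3 TPM in SOX1-/- cells. The genotypes were apart under CT1.0 and overlapped under CT0.4. The CT1.0 difference was -0.65 (SE 0.16, limma adjusted p = 0.012), and it was not called without wild-type line 1 (-0.53, adjusted p = 0.27), wild-type line 2 (-0.77, adjusted p = 0.099) or SOX1-/- line 26 (-0.47, adjusted p = 0.12). No difference between SOX1-/- effects was called for DKK1 or DKK3.

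NOTUM, a secreted enzyme that removes the lipid WNT ligands need, never exceeded 2.83 TPM. On day 8 under CT1.0 it measured 0.369 and 0.289 TPM in wild type and 1.56 and 1.61 TPM in SOX1-/- cells. The SOX1-/- libraries were above both wild-type ones and inside the range of the CT0.4 libraries of that day, which held 1.25 and 2.26 TPM in wild type and 2.83 and 1.12 TPM in SOX1-/- cells. The difference under CT1.0 was 0.96 (SE 0.27, limma adjusted p = 0.025). The call was lost without wild-type line 1 (adjusted p = 0.17), wild-type line 2 (0.17) or SOX1-/- line 26 (0.088), and with a pseudocount of 0.1, where the difference was 1.98 (adjusted p = 0.064).

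APCDD1 was highest under CT0.4 on day 8 in every library, at 188 and 139.7 TPM in wild type and 213 and 199 TPM in SOX1-/- cells. Under CT1.0 on that day it measured 11.3 and 7.22 TPM in wild type and 24.9 and 41.4 TPM in SOX1-/- cells. The CT1.0 genotypes did not overlap, and the SOX1-/- libraries lay between the wild-type CT1.0 and the CT0.4 libraries. The difference was 1.72 (SE 0.39, limma adjusted p = 0.0075), and it was not called without wild-type line 1 (2.01, adjusted p = 0.085), wild-type line 2 (1.43, adjusted p = 0.14) or SOX1-/- line 48 (1.36, adjusted p = 0.078). The SOX1-/- effect under CT1.0 exceeded that under IWP2 by 1.84 and that under CT0.4 by 1.37, and neither was called (adjusted p = 0.078 and 0.17).

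TPBG had the largest increase in SOX1-/- cells among the members. On day 8 under CT1.0 it measured 37.3 and 33.4 TPM in wild type and 604 and 255 TPM in SOX1-/- lines 26 and 48. On day 4 under CT1.0 it measured 76.3 and 54.5 TPM in wild type and 504 and 212 TPM in lines 26 and 48. The genotypes did not overlap on either day, and line 26 was the higher both times, although in no case as high as the CT0.4 libraries of the same day (671 to 892 TPM on day 4 and 1049.7 to 1399 TPM on day 8). The difference was 2.33 (SE 0.33, limma adjusted p = 0.00022) on day 4 and 3.44 (SE 0.33, adjusted p = 1.6e-05) on day 8. The day 4 call was lost without wild-type line 2 (2.09, adjusted p = 0.057).

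Under IWP2 TPBG measured 115 and 117 TPM in wild type and 147 and 143 TPM in SOX1-/- cells on day 4, and 169 and 177 against 199 and 164 TPM on day 8. Neither IWP2 difference was called. The SOX1-/- effect under CT1.0 exceeded that under IWP2 by 2.01 on day 4 (limma adjusted p = 0.02) and 3.37 on day 8 (adjusted p = 0.0022), and that under CT0.4 by 2.01 on day 4 (adjusted p = 0.078, not called) and 3.19 on day 8 (adjusted p = 0.0017). None of the 3 called values was called without wild-type line 1 (adjusted p = 0.24, 0.14 and 0.13) or line 2 (0.30, 0.15 and 0.13).

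Over all 54 tests of a difference between SOX1-/- effects, 12 were called. On day 8 they were 5 members for CT1.0 against IWP2 (3.22% of all genes were called), 4 for CT1.0 against CT0.4 (4.6%) and 0 for CT0.4 against IWP2 (0.147%). On day 4 they were 2 (5.09%), 1 (0.297%) and 0 (1.34%) in the same order. These comparisons share libraries with each other, and their counts are not independent.

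In the day 8 CT1.0 comparison, other measures differed between the genotypes too. The summed TPM of 6 midbrain and roof plate genes (LMX1A, MSX1, WNT1, EN1, EN2 and GDF7) was 18.0 and 14.2 in wild type and 269.6 and 143 in SOX1-/- lines 26 and 48, with all 6 detected in all 4 libraries. The same sum under CT0.4 was 1219 and 796 in wild type and 1400 and 1302 in SOX1-/- cells. The 6 neural progenitor genes, of which SOX1 is one, summed to 1464 and 1387 TPM in wild type and 422 and 708 TPM in SOX1-/- cells. Ribosomal protein genes held 21.6% and 22.9% of all TPM in wild type and 30.3% and 27.7% in SOX1-/- cells. The sums of 5 surface ectoderm genes were 36.2 and 46.5 TPM in wild type and 79.5 and 59.2 TPM in SOX1-/- cells, with KRT5 listed at 0 in both, and those of 5 forebrain genes 13.8 and 10.3 against 5.77 and 3.46 TPM. The sums of 5 neural crest genes were 117 and 119.7 against 91.6 and 95.6 TPM and those of 5 mesenchyme genes 9.17 and 6.70 against 10.9 and 11.8 TPM. The 5 mesendoderm genes summed to at most 0.471 TPM in these libraries. Among the members called higher in SOX1-/- cells, TPBG was higher in line 26, as the midbrain sum was, and APCDD1 in line 48. Lines 26 and 48 were close for FRZB (24.8 and 23.5 TPM) and NOTUM (1.56 and 1.61 TPM). The part of these other measures in the antagonist results was not tested.

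On day 4 under CT1.0 the midbrain and roof plate sum was 10.2 and 7.56 TPM in wild type, with EN2 listed at 0, and 97.3 and 46.3 TPM in SOX1-/- lines 26 and 48. The neural progenitor sum was 937 and 1057 TPM in wild type and 498 and 705 TPM in SOX1-/- cells. The surface ectoderm sum was 57.9 and 63.9 TPM in wild type and 91.3 and 74.6 TPM in SOX1-/- cells, with KRT5 and GATA3 listed at 0 in both. The neural crest sum was 93.6 and 87.9 against 54.9 and 77.0 TPM and the mesenchyme sum 8.80 and 4.798 against 16.5 and 9.59 TPM. Mitochondrial genes held 7.31% and 7.26% of all TPM in wild type and 4.96% and 4.81% in SOX1-/- cells. The part of these measures in the 5 called members of that day was not tested.

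The day 8 levels of SOX1-/- cells under CT1.0 can be set beside both wild-type CT groups. For TPBG (255 to 604 TPM), SFRP4 (0.937 to 2.28 TPM) and APCDD1 (24.9 to 41.4 TPM) they lay between wild-type CT1.0 and wild-type CT0.4. For NOTUM they lay in the wild-type CT0.4 range. For SFRP1, SFRP2 and DKK3 they lay below both wild-type groups, and for FRZB above both. The 8 called members thus did not share 1 position relative to the wild-type CT groups, and the reason was not tested.

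The culture label itself separated the antagonists in wild-type cells. On day 8, CT0.4 against IWP2 went with higher APCDD1 (5.65), TPBG (2.70), NOTUM (1.36) and DKK3 (0.996) and lower FRZB (-3.17), SFRP4 (-1.95) and SFRP1 (-1.21), making 7 of 9 called (12.2% of all genes). APCDD1 was 1.89 and 2.62 TPM under IWP2 against 188 and 139.7 TPM under CT0.4, and FRZB 79.7 and 85.3 TPM against 9.54 and 7.19 TPM. The groups were far apart for both, in opposite directions. For CT1.0 against IWP2, 5 of those 7 were called (10.8%), with SFRP4 (3.05) and APCDD1 (1.64) higher and FRZB (-2.91), TPBG (-2.26) and SFRP1 (-0.73) lower. TPBG, at 169 and 177 TPM under IWP2, was thus above its CT1.0 level and below its CT0.4 level.

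Between the CT labels in wild type on day 8, CT1.0 had more SFRP4 (5.004) and SFRP1 (0.48) and less TPBG (-4.96), APCDD1 (-4.02), NOTUM (-1.03) and DKK3 (-0.96), so that 6 members were called (14.3% of all genes). SFRP1 missed the threshold in that comparison with a robust variance model without trend (adjusted p = 0.055). Over both days, 35 label differences were called in wild type. Fewer were called without wild-type line 1 or line 2, and fewer of all genes were then called in each of these comparisons too. On day 8 APCDD1, FRZB and SFRP1 for CT0.4 against IWP2, FRZB for CT1.0 against IWP2, and SFRP4, TPBG and APCDD1 between the CT labels were called whichever line was left out. Against IWP2, NOTUM (1.66 and 1.07, adjusted p = 0.066 and 0.20), DKK3 (adjusted p = 0.11 and 0.061) and SFRP4 (0.24 and 0.16) under CT0.4 were not called without line 1 or line 2, and TPBG was not called without line 1 (0.060). Under CT1.0 the same held without line 1 or line 2 for SFRP4 (adjusted p = 0.070 and 0.053), APCDD1 (0.40 and 0.104), TPBG (0.092 and 0.11) and SFRP1 (0.19 and 0.21). Between the CT labels it held for SFRP1 (0.35 and 0.42), NOTUM (0.12 and 0.41) and DKK3 (0.086 and 0.084).

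**Figure D3:**
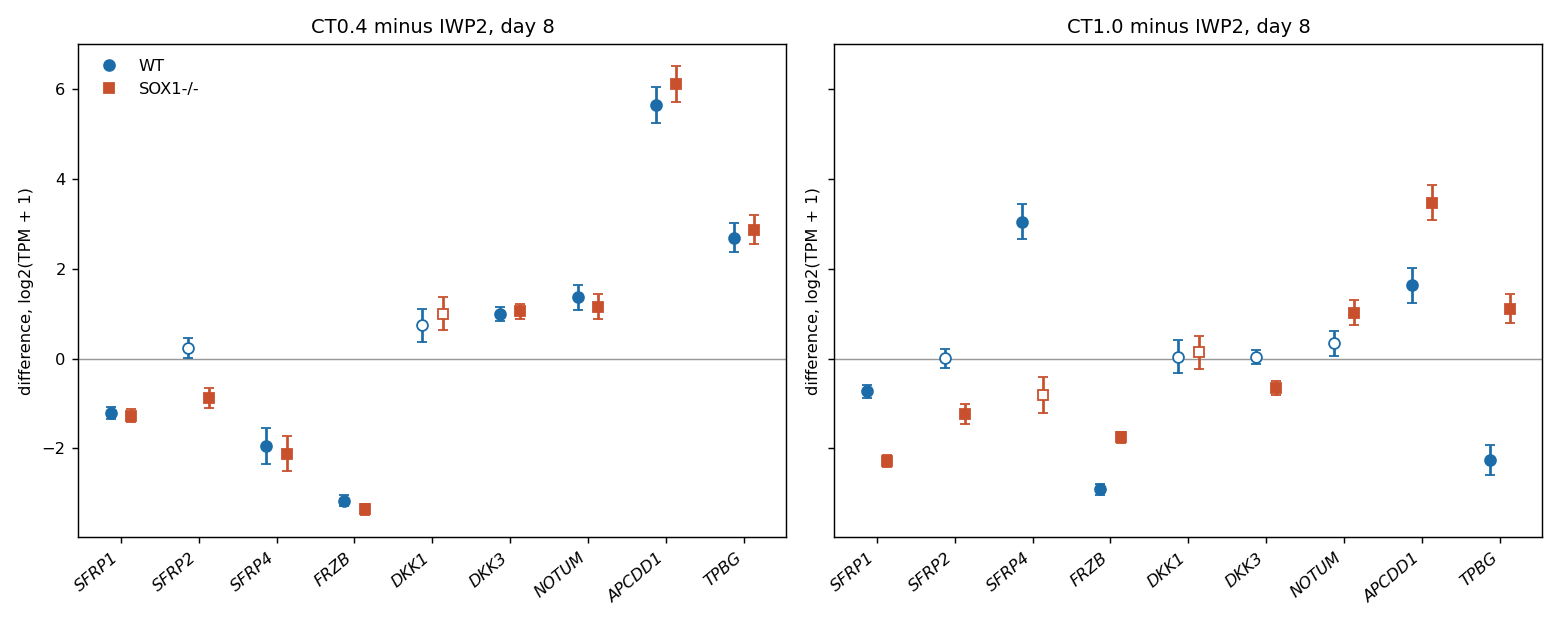
Difference of each antagonist on day 8 from the IWP2 group of the same genotype, in log2(TPM + 1), for CT0.4 on the left and CT1.0 on the right, with wild type as blue circles, SOX1-/- as red squares, bars of 1 standard error and filled symbols for adjusted p under 0.05. Under CT0.4 SFRP2 is at 0.23 in wild type and -0.87 in SOX1-/- cells, and under CT1.0 TPBG is at -2.26 in wild type and 1.11 in SOX1-/- cells.

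On day 4 in wild type, CT0.4 against IWP2 had 3 higher members (DKK1 4.196, APCDD1 2.89, TPBG 2.55) and 4 lower ones (FRZB -1.51, SFRP2 -1.16, SFRP1 -0.84, DKK3 -0.63), with 13.1% of all genes called. CT1.0 against IWP2 had SFRP4 (6.06) and APCDD1 (1.32) higher and FRZB (-2.18), SFRP2 (-0.95) and DKK3 (-0.77) lower (20% of all genes). CT1.0 against CT0.4 had SFRP4 (6.13) higher and DKK1, TPBG (-3.39), APCDD1 (-1.57) and FRZB (-0.68) lower (6.47%), DKK1 being listed at 0 under CT1.0. These 3 comparisons rest on the 4 libraries that stood apart, and the median of all genes was -0.14, -0.22 and -0.03 in them. After median-ratio scaling DKK3 against IWP2 was not called under CT0.4 (-0.40, adjusted p = 0.12) or CT1.0 (-0.45, adjusted p = 0.069), nor was SFRP2 under CT1.0 (-0.61, adjusted p = 0.066). Without wild-type line 1 or line 2, TPBG (adjusted p = 0.083 and 0.053), SFRP1 (0.19 and 0.088), SFRP2 (0.19 and 0.073) and DKK3 (0.38 and 0.20) were not called for CT0.4 against IWP2, nor were APCDD1 (0.26 and 0.21), SFRP2 (0.18 and 0.12) and DKK3 (0.28 and 0.067) for CT1.0 against IWP2. Between the CT labels APCDD1 was not called without either line (0.30 and 0.35), nor were TPBG (0.073) and FRZB (0.061) without line 2.

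In SOX1-/- cells on day 8, CT0.4 against IWP2 had APCDD1 (6.12), TPBG (2.88), NOTUM (1.16) and DKK3 (1.05) higher and FRZB (-3.36), SFRP4 (-2.12), SFRP1 (-1.27) and SFRP2 (-0.87) lower (16.5% of all genes). CT1.0 against IWP2 had APCDD1 (3.48), TPBG (1.11) and NOTUM (1.02) higher and SFRP1 (-2.29), FRZB (-1.76), SFRP2 (-1.24) and DKK3 (-0.66) lower (20.5%). SFRP4 under CT1.0 was 0.937 and 2.28 TPM, below both IWP2 libraries (3.18 and 3.68 TPM), at a difference of -0.81 that was not called. CT1.0 against CT0.4 had FRZB (1.60) and SFRP4 (1.31) higher and APCDD1 (-2.64), TPBG (-1.76), DKK3 (-1.71) and SFRP1 (-1.01) lower (23.1%). Without SOX1-/- line 26, TPBG (0.63, adjusted p = 0.091) and NOTUM (0.98, adjusted p = 0.086) were not called for CT1.0 against IWP2, nor were SFRP2 (adjusted p = 0.053) and NOTUM (0.24) for CT0.4. Without line 48, SFRP2 for CT0.4 (0.14), NOTUM for CT1.0 (0.052) and SFRP4 between the CT labels (0.076) were not called. DKK3 for CT1.0 against IWP2 was not called after median-ratio scaling (-0.40, adjusted p = 0.103). Wild-type libraries enter only through the shared spread, and without wild-type line 1 or line 2 TPBG for CT1.0 against IWP2 (0.12 and 0.12) and SFRP4 between the CT labels (0.11 and 0.11) were not called.

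On day 4 in SOX1-/- cells, CT0.4 against IWP2 had DKK1 (4.22), APCDD1 (2.76) and TPBG (2.55) higher and FRZB (-2.02), SFRP2 (-1.17) and SFRP1 (-0.92) lower (4.8% of all genes). CT1.0 against IWP2 called all 9 members (13.8%), with SFRP4 (2.06), APCDD1 (1.42), DKK1 (1.28), TPBG (1.17) and NOTUM (0.84) higher and FRZB (-2.43), SFRP2 (-1.57), SFRP1 (-0.89) and DKK3 (-0.59) lower. NOTUM was at the edge of the threshold there (adjusted p = 0.0499). CT1.0 against CT0.4 called 3 members (1.78%), SFRP4 (2.28) higher and DKK1 (-2.94) and TPBG (-1.38) lower. Between the CT labels, SFRP4 was not called without SOX1-/- line 48 (adjusted p = 0.063), nor was TPBG (adjusted p = 0.14), and DKK1 and TPBG against IWP2 under CT1.0 were not called without line 26 (0.67, adjusted p = 0.22, and 0.57, adjusted p = 0.12). DKK3, NOTUM and APCDD1 for CT1.0 against IWP2 were not called without line 26 (adjusted p = 0.072, 0.23 and 0.20) or line 48 (0.077, 0.11 and 0.13), and SFRP2 and APCDD1 for CT0.4 against IWP2 were not called without line 48 (0.11 and 0.059).

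FRZB and TPBG were called higher on day 4 than in ES under every label in both genotypes. From ES to day 4, FRZB went from 3.83 and 4.38 TPM in wild type to 133 and 128 TPM under IWP2, 46.3 and 44.3 TPM under CT0.4 and 30.1 and 25.98 TPM under CT1.0. TPBG went from 26.04 and 23.6 TPM to 115 and 117, 671 and 699, and 76.3 and 54.5 TPM under the same labels. All day 4 libraries were above ES for both genes. In wild type, 4 members were called higher and 0 lower under IWP2 (35.2% of all genes), 4 higher and 1 lower under CT0.4 (29.9%) and 3 higher and 1 lower under CT1.0 (31%). SFRP1 (0.71) and SFRP2 (1.01) passed the threshold under IWP2, DKK1 (4.05) and APCDD1 (2.42) under CT0.4 and SFRP4 (5.59) under CT1.0. DKK3 was lower under CT0.4 (-0.90) and CT1.0 (-1.04). SFRP1 under IWP2 was not called without wild-type line 1 (adjusted p = 0.075) or line 2 (0.088), nor TPBG under CT1.0 (0.25 and 0.13), nor SFRP2 under IWP2 without line 1 (0.12), nor APCDD1 (0.077) and DKK3 (0.055) under CT0.4 without line 2.

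In SOX1-/- cells the counts from ES to day 4 were 3 higher and 0 lower under IWP2 (34.7% of all genes), 4 higher and 2 lower under CT0.4 (36.3%) and 5 higher and 2 lower under CT1.0 (38.4%). TPBG rose by 3.82 on the log2 scale under CT1.0, against 1.34 in wild type, and SFRP4 by 2.20, against 5.59 in wild type. Whether a change over time differed between the genotypes was not tested for any member. SFRP2 measured 244 and 263 TPM in SOX1-/- ES and 180 and 222 TPM in wild-type ES, a difference that was not called. SFRP2 was lower on day 4 under CT0.4 (-0.70) and CT1.0 (-1.11) in SOX1-/- cells, while wild-type differences of -0.15 and 0.06 were not called. The CT0.4 value was not called without SOX1-/- line 26 (adjusted p = 0.070) or line 48 (0.13). DKK1 (1.09) and NOTUM (0.84) under CT1.0 were not called without line 26 (0.56 and 0.079), and NOTUM not without line 48 (0.071).

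From day 4 to day 8, FRZB and SFRP1 fell in wild type under all 3 labels. FRZB reached 79.7 and 85.3 TPM under IWP2, 9.54 and 7.19 TPM under CT0.4 and 8.77 and 11.6 TPM under CT1.0, at differences of -0.65, -2.32 and -1.39. SFRP1 differed by -0.85, -1.22 and -1.18. The wild-type counts were 1 higher and 3 lower under IWP2 (13.8% of all genes), 4 higher and 3 lower under CT0.4 (24.8%) and 1 higher and 2 lower under CT1.0 (14.7%). Under CT0.4 DKK1 fell from 19.9 and 20.7 TPM to 1.04 and 0.367 TPM, while APCDD1 (2.58) and DKK3 (1.59) rose. SFRP2 and NOTUM were also called higher there, but not after median-ratio scaling (adjusted p = 0.30 and 0.072), nor without wild-type line 1 (0.16 and 0.103) or line 2 (0.52 and 0.55), and APCDD1 was not called without line 1 (0.054). Under IWP2, SFRP1 (0.16 and 0.097), SFRP2 (0.26 and 0.33) and SFRP4 (0.17 and 0.20) were not called without line 1 or line 2. Under CT1.0, SFRP1 was not called without line 1 (0.072), nor DKK3 without line 1 (0.37) or line 2 (0.077).

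In SOX1-/- cells, FRZB did not follow this fall under CT1.0, where the day 4 libraries held 24.7 and 23.2 TPM and the day 8 libraries 24.8 and 23.5 TPM. The libraries of both days overlapped and the difference was 0.01. Whether the change under CT1.0 differed from that of wild type was not tested. SFRP1 fell by 2.16 on the log2 scale there and APCDD1 rose by 1.52, a call lost without SOX1-/- line 26 (2.15, adjusted p = 0.056) or line 48 (0.88, adjusted p = 0.39). DKK1 under CT1.0 was not called without line 26 (adjusted p = 0.34), and FRZB under IWP2 not without line 26 (0.13) or line 48 (0.15). The counts were 1 higher and 2 lower under IWP2 (9.72% of all genes), 2 higher and 3 lower under CT0.4 (21.5%) and 1 higher and 2 lower under CT1.0 (11%).

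Other genes of the pathway were read in the same fit, from lists chosen with earlier results of these data known. Among 13 feedback targets, which WNT signalling switches on, 7 were higher and 0 lower in SOX1-/- cells under CT1.0 on day 4, and 6 were higher and 1 lower on day 8 (14.9% and 14.3% of all genes were called). Over all genes, 3453 were called higher and 694 lower on day 4, and 1210 higher and 2779 lower on day 8. SP5, a transcriptional target, had the largest difference of that list on both days (4.68 and 3.59). It measured 1.39 and 0.61 TPM in wild type and 75.0 and 32.5 TPM in SOX1-/- lines 26 and 48 on day 4, and 1.78 and 0.782 against 21.8 and 30.3 TPM on day 8. Under CT0.4, 1 of the 13 was called on day 4 and 0 on day 8 (4.24% and 0.416% of all genes).

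Among 16 tested WNT ligand and secretion genes of 21 listed, 3 were higher and 0 lower in SOX1-/- cells under CT1.0 on day 4, and 6 were higher and 1 lower on day 8. The day 4 count is near the 14.9% of all genes called, most of which were higher in SOX1-/- cells. On day 8 that share was 14.3%, and most of those genes were lower. WNT1, the midbrain and roof plate ligand, differed by 2.67 and 3.63 and WNT10B by 2.91 and 3.24. WNT1 measured 5.59 and 4.10 TPM in wild type and 50.5 and 25.6 TPM in SOX1-/- lines 26 and 48 on day 4, and 7.48 and 4.98 against 132 and 57.6 TPM on day 8. The same line order, 26 above 48, held for TPBG on both days, but on day 8 not for APCDD1 (24.9 and 41.4 TPM) or SP5 (21.8 and 30.3 TPM). WNT7B and WNT8B were higher in SOX1-/- cells under CT1.0 on day 8 (2.09 and 1.99) and lower under CT0.4 (-1.88 and -1.81).

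Of the 16 receptor genes, 4 were higher and 0 lower on day 4 under CT1.0, and 3 were higher and 4 lower on day 8, with FZD5 (-2.06), FZD9 (-2.03) and FZD7 (-1.58) lower and FZD10 (1.48) higher. Of 15 tested other antagonists of 19 listed, 3 were higher and 2 lower on day 4 and 2 were higher and 2 lower on day 8. The shares of all genes called were 14.9% on day 4, mostly higher in SOX1-/- cells, and 14.3% on day 8, mostly lower. TRABD2B, a membrane protease that cleaves WNT ligands, was higher on both days (1.15 and 1.67), and SHISA2, which retains Frizzled receptors inside the cell, was higher on day 4 (2.55). The median difference of these other antagonists on day 8 was -0.0050, beside -0.02 over all genes.

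Across the 14 group means, APCDD1 had the pattern most like that of AXIN2, the standard readout of WNT signalling, with a Pearson r of 0.98 on log2(TPM + 1). AXIN2 was also the gene most like APCDD1 among 11378 candidates with a group mean of 10 TPM or more, followed by LMX1B (0.97) and FOXJ1 (0.97). NOTUM was most like WNT1 (0.96), WNT10B (0.96) and LMX1B (0.94), and its r with AXIN2 was 0.91. It reached 1 TPM in only 8 of the 28 libraries, so that its pattern lies mostly near 0. TPBG was most like ZFHX4 (0.94), LMO3 (0.91) and GLI3 (0.91), with an r of 0.71 with AXIN2. SFRP1 ran against AXIN2, at -0.73.

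The remaining members had other nearest genes, namely CAMK2N2 for SFRP1 (0.96), ZDHHC3 for SFRP2 (0.91), SPSB4 for SFRP4 (0.91), HECTD2 for FRZB (0.96), CNTN2 for DKK1 (0.92) and LATS2 for DKK3 (0.97). Between members, NOTUM and APCDD1 had the highest r (0.90), followed by NOTUM and TPBG (0.74) and APCDD1 and TPBG (0.73), while SFRP1 and NOTUM had the lowest (-0.80). These values describe 14 points that share labels, days and genotypes and carry no p. Those of SFRP4, DKK1 and NOTUM rest on few libraries at 1 TPM or more (11, 7 and 8 of 28).

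**Figure D4:**
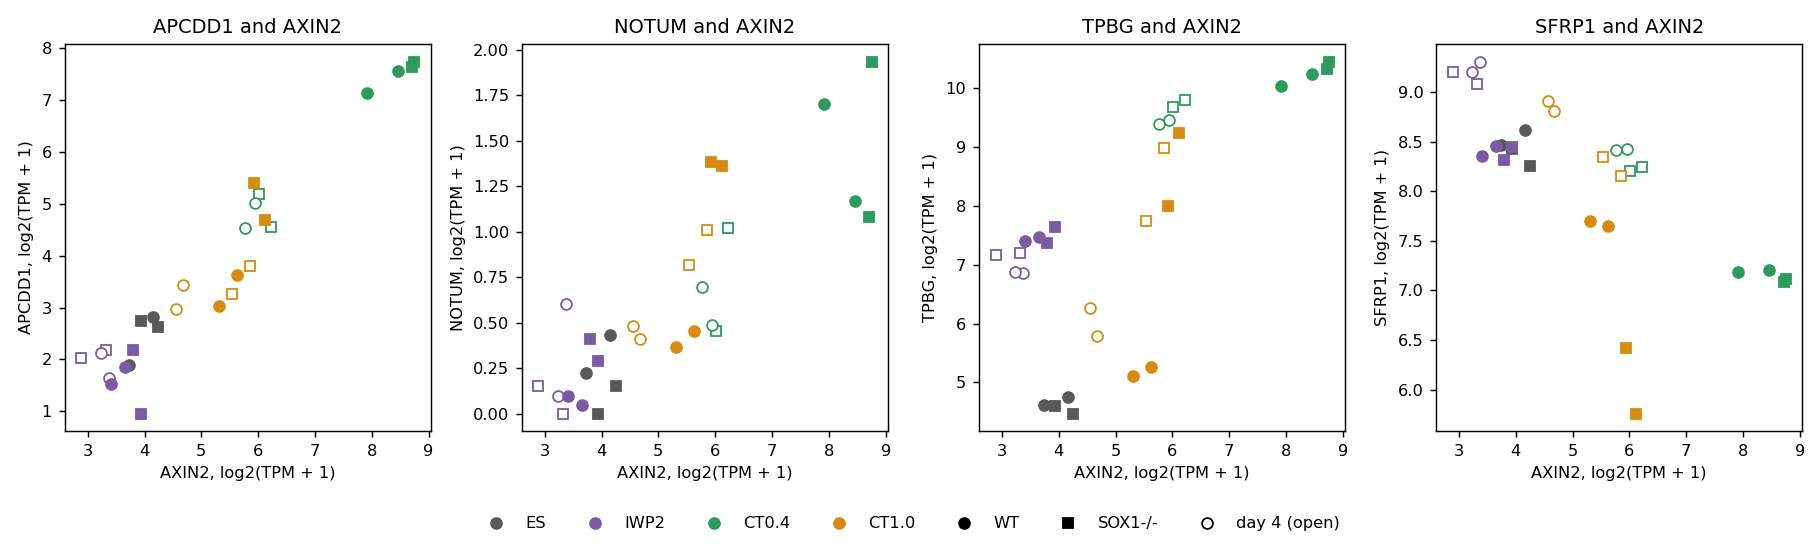
APCDD1, NOTUM, TPBG and SFRP1 against AXIN2 in the 28 libraries, all as log2(TPM + 1), with colour for the label, circles for wild type, squares for SOX1-/- and open symbols for day 4. APCDD1 follows AXIN2 across the libraries. The wild-type CT1.0 libraries of day 8 hold TPBG at 33.4 to 37.3 TPM, and their AXIN2, at 38.5 and 48.4 TPM, is below the 60.0 and 68.3 TPM of the SOX1-/- CT1.0 libraries of that day, which hold TPBG at 255 and 604 TPM.

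TPBG separated from AXIN2 under CT1.0. AXIN2 measured 48.4 and 38.5 TPM in wild type and 68.3 and 60.0 TPM in SOX1-/- cells under CT1.0 on day 8, with 9.64 and 11.5 TPM in wild-type cells under IWP2. TPBG was lower in those wild-type CT1.0 libraries than under IWP2, although AXIN2 was higher. APCDD1 in the same libraries, at 11.3 and 7.22 TPM, was above its IWP2 level of 1.89 and 2.62 TPM, as AXIN2 was.

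By the table's gene identifiers, looked up in the GENCODE annotation of hg38, TPBG (ENSG00000146242.8) lies at chr6:82363206-82370828 on the plus strand, APCDD1 (ENSG00000154856.12) at chr18:10454628-10489948 on the plus strand and DKK1 (ENSG00000107984.9) at chr10:52314296-52318042 on the plus strand. SFRP4 (ENSG00000106483.11) lies at chr7:37905932-38025695, FRZB (ENSG00000162998.4) at chr2:182833275-182867162 and SFRP2 (ENSG00000145423.4) at chr4:153780592-153789120, all on the minus strand. DKK3 (ENSG00000050165.17) lies at chr11:11963106-12009769 and NOTUM (ENSG00000185269.11) at chr17:81952507-81961840, both on the minus strand. SFRP1 (ENSG00000104332.11) lies at chr8:41261958-41309497 on the minus strand.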

How the data were processed

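Poly(A) RNA of 28 libraries in 14 groups of 2 was profiled by paired-end sequencing. The authors deposited TPM values per gene. Salmon 0.8.2, CASAVA 1.7 and the build hg38 appear in the submitters' processing notes, which state no filter. TPM keeps no sequencing depth, so the depth is unknown and no counting interval can be given.

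The deposited TPM values were taken to log2(TPM + 1), and genes at 1 TPM or more in at least 2 libraries were kept (27912 of 58219). A mean per group was fitted over all 28 libraries with limma 3.58.1 in R 4.3.3 (14 residual and 2.76 prior degrees of freedom, with an intensity trend). The test is two-sided, and p-values were adjusted by Benjamini-Hochberg within each of 37 comparisons. The fit was tested on simulated data. Tables were handled with data.table (version 1.17.8) and pandas 2.3.3 and figures drawn with matplotlib 3.10.9.

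The members and the pathway and marker lists were chosen with earlier results of these data known. All 9 members are named throughout. Other genes named are those of the lists with the largest called differences, the 3 with the highest Pearson r over group means for APCDD1, NOTUM and TPBG and the first of them for the other members, and the genes of marker lists. Groups were taken from the labels. Alternatives were another pseudocount, no filter, median-ratio scaling, a robust variance model without trend and a minimum size. Others were only the compared groups, the line number as a block and each line left out. The 4 wild-type day 4 CT libraries were also left out, an alternative chosen after seeing the data. The values of 1 marker list are not reported here.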

Additional observations from a re-analysis of the deposited data

Results flagged for a closer look

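The SOX1-/- effect, SOX1-/- minus wild type, differed between culture labels in 12 tests, by the limma test of the difference itself on the log2(TPM + 1) scale. On day 4, CT1.0 against IWP2 gave -4.00 for SFRP4 (adjusted p = 0.00085) and 2.01 for TPBG (adjusted p = 0.02), and CT1.0 against CT0.4 gave -3.85 for SFRP4 (adjusted p = 0.0044). On day 8, CT1.0 against IWP2 gave -3.86 for SFRP4 (adjusted p = 0.0026), 3.37 for TPBG (0.0022), -1.55 for SFRP1 (0.0012), -1.24 for SFRP2 (0.039) and 1.15 for FRZB (0.003). On the same day CT1.0 against CT0.4 gave -3.69 for SFRP4 (adjusted p = 0.0024), 3.19 for TPBG (0.0017), -1.49 for SFRP1 (0.00086) and 1.35 for FRZB (0.00082). SFRP4 was near 0 in both genotypes under CT0.4, and under IWP2 on day 4. Its differences from those groups largely restate its CT1.0 difference. Each group has 2 libraries, and without wild-type line 1 or line 2 most of the 12 were not called. Fewer of all genes were then called in the same comparisons too, so that the loss is not particular to these members.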

How the results depend on the processing

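Of 63 SOX1-/- against wild-type tests 15 were called, and 6 to 13 with 1 line left out. Label differences in wild type went from 35 to 15 to 38, changes over time in wild type from 27 to 16 to 32, and differences between SOX1-/- effects from 12 to 2 to 15. With only the compared groups fitted, the calls were 0 for SOX1-/- effects, 0 for differences between them, 20 for labels in wild type, 7 for labels in SOX1-/- cells and 17 for time in SOX1-/- cells (39 and 27 with all groups). In SOX1-/- cells that fit called 0 of all genes for CT1.0 against IWP2 on both days and for CT1.0 against CT0.4 on day 4. It called 3 of all genes for CT0.4 against IWP2 on day 4, and 0 from day 4 to day 8 under IWP2 and CT1.0. For differences between SOX1-/- effects it called 79 to 332 of all genes. Requiring a size of at least 1 left 10 of the 15. No value called in the fit over all groups changed sign, and the 95 sign changes were in uncalled values of at most 0.54. On day 8 in wild type with 1 line left out, the uncalled SFRP2 difference of CT0.4 from IWP2 ranged from -0.15 to 0.61 and the FRZB difference of CT1.0 from CT0.4 from -0.11 to 0.62 (called without line 1, adjusted p = 0.017).

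The line numbers were not shown to pair the wild-type libraries, in which deviations correlated at -0.094 to 0.078 and 0 of 21 pairs of groups exceeded 0.1. In SOX1-/- cells they correlated at -0.057 to 0.20 and 8 of 21 pairs of groups exceeded 0.1. Some SOX1-/- groups thus shared weak deviations by line. With the line number as a replicate block, 14 SOX1-/- effects, 13 differences between them, 37 and 39 label differences and 28 and 29 changes over time in wild type and SOX1-/- cells were called. Without the 4 wild-type day 4 CT libraries, an alternative chosen after seeing the data, 106 calls were made in comparisons not using them, against 110 with them. Depth is unknown, which limits SFRP4, DKK1 and NOTUM most, being near 0 in many groups.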
